A study of Mus musculus with 6 samples.

Results

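Platelet-derived growth factors (PDGFs) and fibroblast growth factors (FGFs) drive fibroblast proliferation, migration and survival through receptor tyrosine kinases, and collagen itself is read by the discoidin domain receptors. The 10 genes described here are a PDGF ligand (Pdgfa), both PDGF receptors (Pdgfra and Pdgfrb), 3 FGF ligands (Fgf2, Fgf7 and Fgf10), 2 FGF receptors (Fgfr1 and Fgfr2) and both discoidin domain receptors (Ddr1 and Ddr2). The rule that sets the group lists their symbols, and they are 10 of the 55364 genes listed and 10 of the 10346 genes tested. They were measured in primary mouse lung fibroblasts (LFs) by Quant-Seq, in which cDNA synthesis starts at the poly(A) tail, so that a read marks the end of a transcript. The 6 libraries comprised 3 of wt LFs and 3 of LFs labelled TKS5 KO, all exposed to 10 ng/ml TGFβ1, a profibrotic cytokine, for 24 h; no unexposed LFs were included in the libraries analysed here. LFs were isolated by collagenase from the lungs of adult C57Bl6/J mice and were serum-starved. The second genotype is a knockout by its label, but the study's methods describe heterozygous Tks5+/- mice, in which an exon of Sh3pxd2a was removed by Cre under the ubiquitous CMV promoter, so that every cell type carried the allele. The study describes its samples as biologically independent, but no label states that these replicates came from separate animals or cultures. If they did not, the p-values measure a spread that may be technical.

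A PDGF dimer joins a pair of receptor chains, and PDGF-AA binds the α chain alone, whereas the β chain is the receptor that pericytes and other mural cells depend on. In the lung, PDGFRα marks lipofibroblasts and the precursors of alveolar myofibroblasts. FGF7 and FGF10 are made by mesenchymal cells and act on the epithelial splice form of FGFR2, while FGF2 is made and sensed by fibroblasts and signals largely through FGFR1. FGF binding requires heparan sulphate as a co-receptor. DDR1 and DDR2 bind triple-helical collagen and signal slowly. DDR1 is known mainly from epithelia and DDR2 from mesenchymal cells.

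Fgf7 and Fgf10, whose products share a receptor, differed between genotypes in opposite directions, and the bases before their start sites are shown for that reason. Both are the 250 bases before the start site given by RefSeq for GRCm38.p6, on the forward strand, at chr2:126034408-126034657 for Fgf7 and chr13:118714449-118714698 for Fgf10. Capitals mark CAGAC on either strand, the core of the SMAD element through which TGFβ signals.
Fgf7: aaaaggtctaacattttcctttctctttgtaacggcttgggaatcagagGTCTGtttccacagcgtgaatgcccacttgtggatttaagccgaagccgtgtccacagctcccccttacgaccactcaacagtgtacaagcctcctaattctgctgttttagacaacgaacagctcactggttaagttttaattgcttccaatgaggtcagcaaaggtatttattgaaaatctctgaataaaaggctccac
Fgf10: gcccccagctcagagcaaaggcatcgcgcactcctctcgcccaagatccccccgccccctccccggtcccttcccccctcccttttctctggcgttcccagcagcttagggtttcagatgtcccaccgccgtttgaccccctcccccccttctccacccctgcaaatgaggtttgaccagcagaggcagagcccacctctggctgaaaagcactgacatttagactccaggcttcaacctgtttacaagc
The Fgf7 sequence holds 43.6% G or C and 6 CpG and has its match at -201 from the start site, while the Fgf10 sequence holds 61.2% G or C and 8 CpG and no match. Among 32851 RefSeq promoters of this length, the median was 52.4% G or C and 6 CpG. CAGAC lay in 42.2% of them, the AP-1 motif TGANTCA in 6.75%, the TEAD motif GGAATG in 12.6% and the TATA motif TATAAA in 12.4%, counted on both strands. Windows of 8 members were read, without Pdgfrb, which was called lower, and Fgfr1. CAGAC also lay in those of Fgf2 and Pdgfra and in 1 of the 4 Ddr1 windows, TGANTCA in another Ddr1 window and TATAAA in that of Ddr2, and no matches overlapped. These are matches of letters, not measured binding sites.

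Total counts ran from 1344507 to 2369882 in wt LFs and from 1979084 to 2329155 in the libraries labelled TKS5 KO. A count of 3, used as the floor, is close to the upper 95% limit of counting error for a 0. It corresponded to between 1.11 and 1.93 CPM (counts scaled to the library size) after scaling by the TMM method. Sh3pxd2a, the gene of Tks5 on chromosome 19, was counted 205, 190 and 284 times in wt replicates 1, 2 and 3, against 238, 258 and 260 times in the libraries labelled TKS5 KO, a log2 fold change of 0.29 (adjusted p = 0.249). These counts did not bear out the labels, whereas the study reports reduced Tks5 mRNA in Tks5+/- LFs by Q-RT-PCR. The reads come from the transcript end and not from the removed exon. Why they were not fewer was not tested. Macrophage markers summed to 1774 CPM in wt replicate 3, against 286 CPM in the lowest wt library and between 120 and 138 CPM in the libraries labelled TKS5 KO, and 4 of 8 tested macrophage markers were called lower. On library totals alone, the median log2 fold change over the tested genes was -0.47 in place of -0.05. The fold changes below are those of the libraries labelled TKS5 KO against wt LFs, from edgeR's quasi-likelihood F test, and each adjusted p was adjusted over all 10346 genes by the Benjamini-Hochberg method. Calls required an adjusted p below 0.05 together with a fold change of 1.2 or more. Across all genes, 44.9% were called, 22.1% lower and 22.8% higher, and the CPM of the genotypes did not overlap in 53.8%.

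All 10 members passed the filter on low counts. Pdgfa, Pdgfra and Fgf7 were called higher and Pdgfrb, Fgf10 and Ddr1 lower in the libraries labelled TKS5 KO, while Fgf2, Fgfr1, Fgfr2 and Ddr2 were not called. The 6 calls among 10 genes stand beside the 44.9% called among all genes, so that the share was near the background for so few genes. The CPM of the genotypes did not overlap for 5 of the 10 members, beside 53.8% of all genes tested, so this share too was near the background. The median log2 fold change of the members was -0.44. By role, 3 of the 4 ligands and 3 of the 6 receptors were called, and each of the 3 families held members called in opposite directions or members called and not called. Reads from transcript ends were not divided by length, so counts of different genes do not compare their levels.

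**Figure D1:**
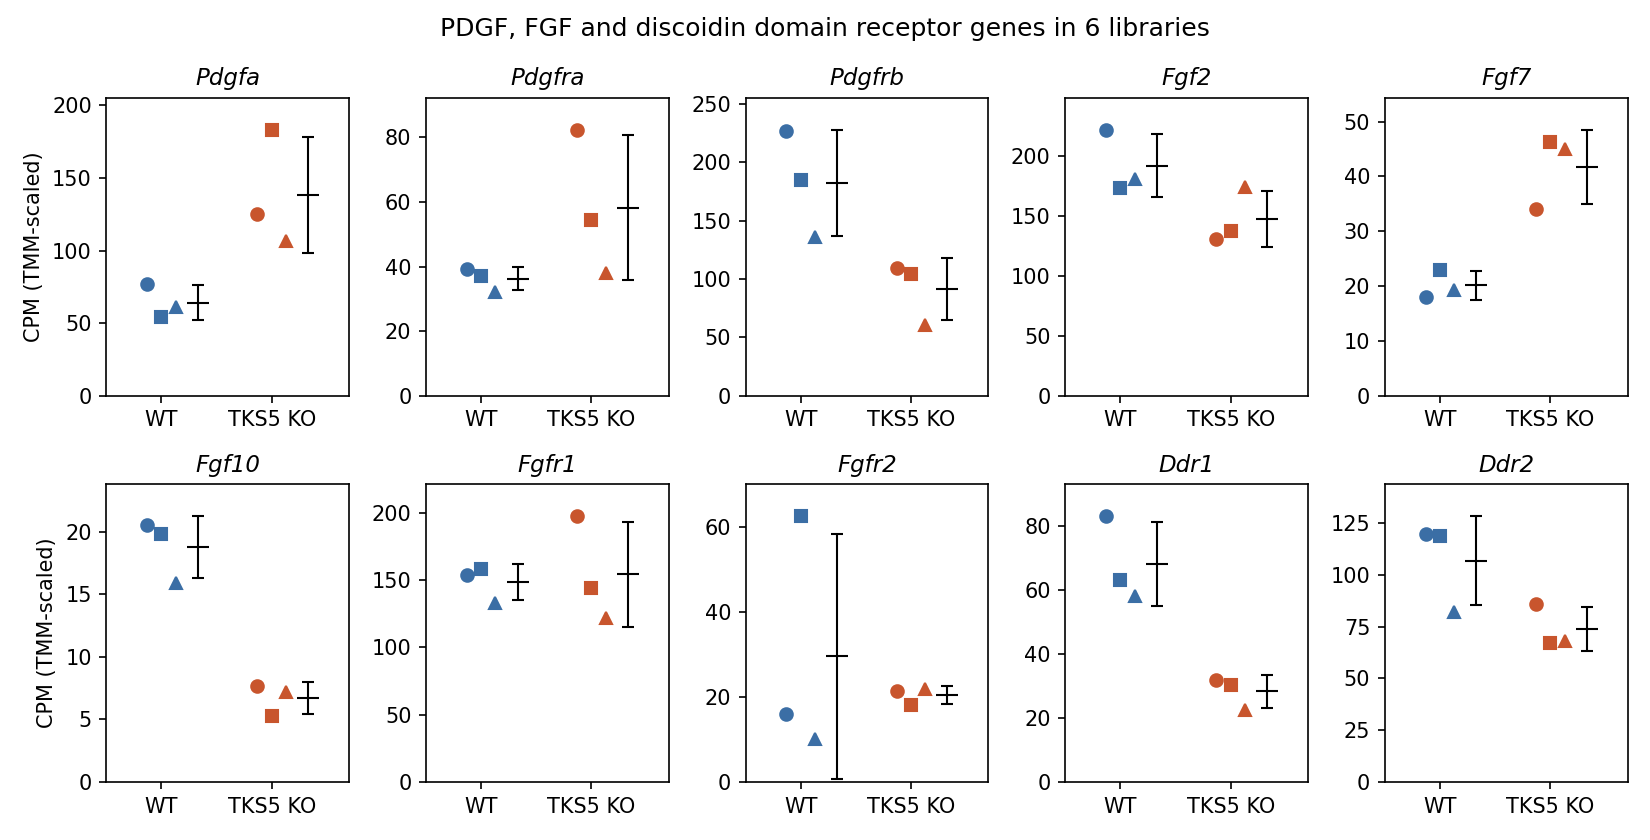
CPM of the 10 members (vertical axis, TMM-scaled, from 0) in the wt libraries (blue) and the libraries labelled TKS5 KO (orange), with circles, squares and triangles for replicates 1, 2 and 3 and a bar for the mean ± SD of 3 libraries. Pdgfa, Fgf7, Pdgfrb, Fgf10 and Ddr1 show separate groups, and a single high wt library carries the wide bar of Fgfr2.

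Pdgfa, on chromosome 5 from 138976014 to 138997370 on the reverse strand, encodes the A chain and was higher in the libraries labelled TKS5 KO. It was counted 120, 101 and 164 times in wt replicates 1, 2 and 3, against 228, 313 and 208 times in the libraries labelled TKS5 KO. Every library labelled TKS5 KO lay above every wt library. Means were 64.0 ± 11.9 CPM in wt LFs and 138 ± 40.0 CPM (SD, n = 3 each) in the libraries labelled TKS5 KO, a fold change of 2.16 (log2 1.11, standard error 0.23, 95% interval 0.63 to 1.59, adjusted p = 5.13e-04). With any library left out the log2 fold change stayed between 0.89 and 1.31 and the gene was called.

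Pdgfra, the α receptor on chromosome 5 from 75152292 to 75198215 on the forward strand, was counted 61, 69 and 87 times in wt replicates 1, 2 and 3, against 150, 93 and 74 times in the libraries labelled TKS5 KO. The wt libraries lay close together, at 39.3, 36.9 and 32.3 CPM, and those labelled TKS5 KO spread over 82.3, 54.4 and 37.9 CPM, the last of which was below the highest wt library. The means were 36.1 ± 3.57 and 58.2 ± 22.5 CPM (SD, n = 3 each), a log2 fold change of 0.69 (standard error 0.26, 95% interval 0.16 to 1.23, adjusted p = 0.0334). The call rested on single libraries. Without TKS5 KO replicate 1 the log2 fold change was 0.41 (adjusted p = 0.202), without wt replicate 3 it was 0.61 (adjusted p = 0.102) and without wt replicate 2 it was 0.71 (adjusted p = 0.0736). The gene was called in 10 of 18 alternative fits. The log2 fold change was above 0 in all 18, and adjusted p values ran from 6.87e-04 to 0.398, with DESeq2 at 0.0829 and limma-voom at 0.0630.

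Pdgfrb, the β receptor on chromosome 18 from 61045150 to 61085061 on the forward strand, went the other way. It was counted 352, 345 and 367 times in wt replicates 1, 2 and 3, against 199, 178 and 118 times in the libraries labelled TKS5 KO, and the groups did not overlap. Its level was 182 ± 45.3 CPM in wt LFs and 91.2 ± 26.8 CPM (SD, n = 3 each) in the libraries labelled TKS5 KO, a log2 fold change of -1.0 (standard error 0.24, 95% interval -1.50 to -0.49, adjusted p = 0.00203). The gene was called with any library left out, at a log2 fold change between -1.18 and -0.73. A correction for both transcript length and GC content ended the call, at -0.41 (adjusted p = 0.171). Pdgfra and Pdgfrb sit on PDGF-responsive mesenchymal cells, and their ratio within a library does not depend on the scaling between libraries. The log2 ratio of Pdgfra to Pdgfrb counts was -2.52, -2.31 and -2.07 in wt replicates 1, 2 and 3, against -0.41, -0.93 and -0.67 in the libraries labelled TKS5 KO. The mean moved from -2.30 ± 0.22 to -0.67 ± 0.26 (SD, n = 3 each), a difference of 1.63, and summed counts gave 0.204 Pdgfra reads per Pdgfrb read in wt LFs and 0.640 in the libraries labelled TKS5 KO. The groups did not overlap in this ratio, and the exact two-sided permutation test gave p = 0.1, the smallest that 3 libraries against 3 allow, or 0.133 adjusted over the 4 ratios compared.

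Markers of mural cells, on which the β receptor is abundant, were split. Of 14 smooth muscle and pericyte markers 8 were tested, 4 were called lower and 2 higher (22.1% and 22.8% over all genes). Their median log2 fold change was -0.69. Cspg4, the pericyte proteoglycan NG2, was counted 37, 39 and 58 times in wt LFs, against 4, 2 and 4 times in the libraries labelled TKS5 KO (log2 fold change -3.55, adjusted p = 7.77e-07), and Notch3, a mural cell receptor, fell by 1.53 on the log2 scale (adjusted p = 0.0129, but 0.167 without wt replicate 1). Tagln, an actin-binding protein of contractile cells, rose by 1.99 (adjusted p = 1.73e-06), and Acta2, the smooth muscle actin of myofibroblasts, was at -0.11 (adjusted p = 0.710). The defining pericyte genes Rgs5, Kcnj8 and Abcc9 had at most 10 counts in any library and Higd1b had 0 in all. The summed level of the list ran from 4874 to 5775 CPM in wt LFs and from 6294 to 7177 CPM in the libraries labelled TKS5 KO. Acta2 alone was at 4922, 4932 and 3977 CPM in wt replicates 1, 2 and 3, against 4915, 3471 and 4464 CPM in those libraries. Tagln was at 479, 452 and 501 CPM, against 1772, 2694 and 1208 CPM. The sum thus rests largely on Acta2 and Tagln and does not check the amount of mural cells. Alveolar fibroblast markers, a population known for PDGFRα, gave 1 lower and 2 higher calls among 6 tested, with a median log2 fold change of -0.18. Plin2 and Limch1 had the highest mean CPM of the list. Plin2 was at 0.19 (adjusted p = 0.499) and Limch1 at -1.55 (adjusted p = 0.0379, called in 1 of 6 fits that left out a library). Tcf21, a transcription factor of lipofibroblasts, was counted 3, 4 and 5 times in wt LFs, against 11, 21 and 21 times in the libraries labelled TKS5 KO (log2 fold change 2.26, adjusted p = 8.02e-04). The list summed to between 301 and 360 CPM in wt LFs and between 295 and 430 CPM in the libraries labelled TKS5 KO. Most of this sum was Plin2, at 218, 261 and 329 CPM in wt replicates 1, 2 and 3, against 232, 311 and 383 CPM. Cspg4, Notch3 and Tcf21 were picked from the lists after their values were seen. In bulk libraries fewer cells of a type and less RNA per cell cannot be told apart, and the part of these cells in the PDGF receptor values was not tested.

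**Figure D2:**
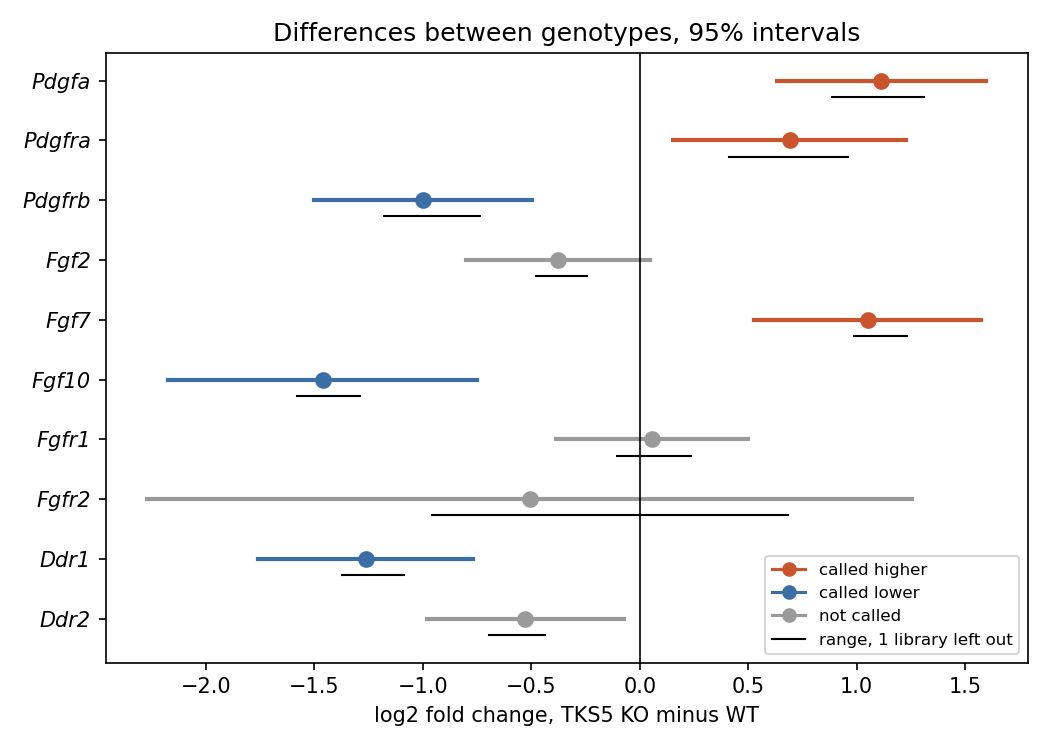
Log2 fold change of each member (horizontal axis, libraries labelled TKS5 KO minus wt) with its 95% interval from edgeR, in orange where called higher, blue where called lower and grey where not called; the black line below each gives the range over the 6 fits that leave out a library. The intervals of the 6 called genes lie clear of 0, and that of Fgfr2 runs from -2.27 to 1.26. That of Ddr2, from -0.98 to -0.07, also lies clear of 0, although the gene was not called. The intervals are not adjusted for the number of genes, whereas the calls are.

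Among the FGF ligands, Fgf7, on chromosome 2 from 126034658 to 126091185 on the forward strand, was higher in the libraries labelled TKS5 KO. The keratinocyte growth factor that it encodes was counted 28, 43 and 52 times in wt replicates 1, 2 and 3, against 62, 79 and 88 times in the libraries labelled TKS5 KO. After scaling, all 3 libraries labelled TKS5 KO lay above all 3 wt libraries. The level was 20.1 ± 2.59 CPM in wt LFs and 41.8 ± 6.73 CPM (SD, n = 3 each) in the libraries labelled TKS5 KO, a fold change of 2.07 (log2 1.05, standard error 0.25, 95% interval 0.53 to 1.57, adjusted p = 0.00180). It was called in all 18 alternative fits.

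Fgf10, on chromosome 13 from 118669791 to 118792115 on the forward strand, encodes the mesenchymal ligand of lung budding and was lower. It was counted 32, 37 and 43 times in wt replicates 1, 2 and 3, against 14, 9 and 14 times in the libraries labelled TKS5 KO. The groups were apart in raw counts as well as in CPM, which were 18.8 ± 2.49 and 6.70 ± 1.27 (SD, n = 3 each). The fold change of 2.75 (log2 -1.46, standard error 0.34, 95% interval -2.17 to -0.75, adjusted p = 0.00152) was the largest among the members, on few reads. The log2 fold change stayed between -1.58 and -1.29 with any library left out, and the gene was called in all 17 alternative fits that tested it.

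Of the 4 ratios compared, that of Fgf7 to Fgf10 separated the genotypes most widely. The ratio joins a member called higher to a member called lower, so its width restates both fold changes. On the log2 scale it was 0.10 ± 0.25 in wt LFs, where reads of both genes were about equal in number, and 2.59 ± 0.48 (SD, n = 3 each) in the libraries labelled TKS5 KO, a difference of 2.50. Summed counts gave 1.10 Fgf7 reads per Fgf10 read in wt LFs and 6.19 in the libraries labelled TKS5 KO. The groups did not overlap, and the exact two-sided permutation test gave its smallest p of 0.1 (0.133 adjusted over the 4 ratios). The number of reads is not a number of transcripts, and the change of the ratio, not its level, is compared.

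Fgf2, on chromosome 3 from 37348346 to 37410108 on the forward strand, was not called. Its reads numbered 344, 323 and 486 in wt replicates 1, 2 and 3, against 238, 235 and 339 in the libraries labelled TKS5 KO. The level was 191 ± 26.2 CPM in wt LFs and 147 ± 23.0 CPM (SD, n = 3 each) in the libraries labelled TKS5 KO, where replicate 3, at 173 CPM, lay above the lowest wt library by less than 1 CPM (log2 fold change -0.38, standard error 0.21, adjusted p = 0.140). Fgf2 was called lower on library totals alone (-0.80, adjusted p = 0.00300) and, likewise, when the authors' normalized counts were tested (-0.74, adjusted p = 0.00711). Nudt6, the antisense gene of Fgf2, shares 640 exon bases with it on the opposite strand, and without the strand of the counting the reads of both cannot be told apart there. It was counted 7, 14 and 21 times in wt LFs, against 46, 25 and 20 times in the libraries labelled TKS5 KO.

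**Figure D3:**
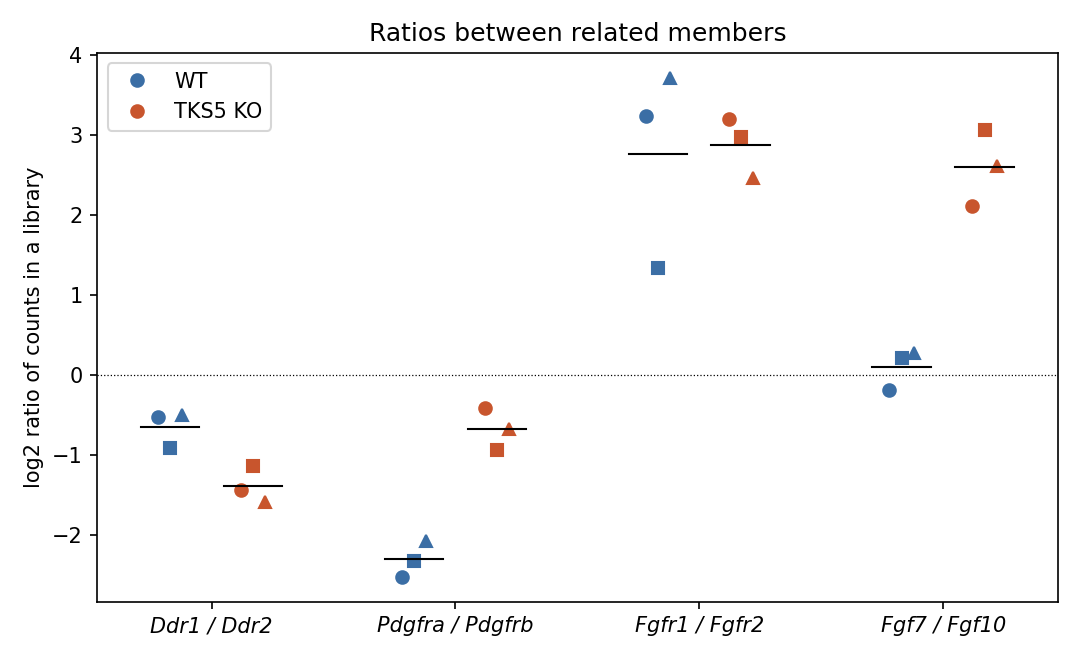
Log2 ratio of counts between related members within each library (vertical axis) for wt LFs (blue) and the libraries labelled TKS5 KO (orange), with circles, squares and triangles for replicates 1, 2 and 3 and a line for the mean. The genotypes are apart for Ddr1 to Ddr2, Pdgfra to Pdgfrb and Fgf7 to Fgf10, by 0.74, 1.63 and 2.50 between means, and overlap for Fgfr1 to Fgfr2.

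Neither FGF receptor was called, although a correction for transcript length and GC content called Fgfr1 higher. Fgfr1, on chromosome 8 from 25513654 to 25575718 on the forward strand, is the FGF receptor that fibroblasts are known for. It was counted 239, 296 and 359 times in wt replicates 1, 2 and 3, against 360, 246 and 238 times in the libraries labelled TKS5 KO, which lay on both sides of the wt libraries after scaling. The means were 148 ± 13.5 and 154 ± 39.0 CPM (SD, n = 3 each), and the log2 fold change of 0.06 had a 95% interval from -0.38 to 0.50 (adjusted p = 0.844), which leaves room for a change of that size either way. Its sign was not fixed, since it was -0.35 on library totals alone, -0.15 on the authors' normalized counts, -0.02 without wt replicate 3 and -0.10 without TKS5 KO replicate 1, but 0.62 after correction for transcript length and GC content (adjusted p = 0.0170), the setting of 18 that called it.

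Fgfr2, on chromosome 7 from 130162451 to 133123350 on the reverse strand, is the receptor of FGF7 and FGF10. It was counted 25, 117 and 27 times in wt replicates 1, 2 and 3, against 39, 31 and 43 times in the libraries labelled TKS5 KO. The wt replicates lay at 16.1, 62.6 and 10.0 CPM, so that replicate 2 stood apart, while the libraries labelled TKS5 KO lay together at 20.5 ± 2.08 CPM (SD, n = 3). The log2 fold change was -0.51 (standard error 0.71, 95% interval -2.27 to 1.26, adjusted p = 0.608). Without wt replicate 2 it was 0.68 (adjusted p = 0.153), and the libraries labelled TKS5 KO then lay above both other wt libraries. The ratio of Fgfr1 to Fgfr2 was 2.76 ± 1.26 in wt LFs and 2.87 ± 0.38 (SD, n = 3 each) in the libraries labelled TKS5 KO on the log2 scale (exact two-sided permutation p = 1.0). The annotation of Fgfr2 shares 314 exon bases with Ctbp2 on the same strand, far from its end. Counts summed per gene do not separate the splice forms of FGFR2.

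Ddr1, on chromosome 17 from 35681567 to 35704621 on the reverse strand, was lower in the libraries labelled TKS5 KO, counted 129, 118 and 157 times in wt replicates 1, 2 and 3 but 58, 52 and 44 times there. The lowest wt library, at 58.2 CPM, lay above the highest of the others, at 31.8 CPM. The log2 fold change was -1.26 (standard error 0.24, 95% interval -1.76 to -0.77, adjusted p = 1.81e-04), the smallest adjusted p among the members. The gene was called in all 18 alternative fits, but a correction for transcript length and GC content brought it to -0.66 (adjusted p = 0.0287). Ddr2, on chromosome 1 from 169972307 to 170110762 on the reverse strand, was counted 186, 222 and 221 times in wt replicates 1, 2 and 3, against 157, 115 and 133 times in the libraries labelled TKS5 KO. Its lowest wt library, at 81.9 CPM, lay below the highest of the others, at 86.2 CPM. At a log2 fold change of -0.53, with a standard error of 0.22 and an adjusted p of 0.0539, it was not called, though 8 of 18 alternative fits called it lower, and a correction for transcript length turned it to 0.07 (adjusted p = 0.814). The end of Ddr2 shares 90 exon bases with 3110045C21Rik on the opposite strand, which was counted 122, 114 and 128 times in wt LFs, against 78, 70 and 77 times in the libraries labelled TKS5 KO.

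The ratio of Ddr1 to Ddr2 was -0.53, -0.91 and -0.49 on the log2 scale in wt replicates 1, 2 and 3, against -1.43, -1.14 and -1.58 in the libraries labelled TKS5 KO. The groups did not overlap, and the means differed by -0.74 (exact two-sided permutation p = 0.1, 0.133 adjusted over the 4 ratios). Epithelial cells are a known source of Ddr1 and Fgfr2. Of 16 epithelial markers 6, Grhl2, Elf3, Sftpc, Sftpb, Scgb1a1 and Nkx2-1, were at 0 in all libraries, and Epcam was counted 2, 1 and 3 times in wt LFs but 0 in each of the others. Cdh1, the epithelial cadherin, was counted 17, 8 and 58 times in wt LFs but 0 in each library labelled TKS5 KO. Of the 3 markers tested, Krt18 and Cldn4 were called lower and Ager higher. The list summed to between 38.5 and 67.9 CPM in wt LFs and between 30.7 and 63.8 CPM in the libraries labelled TKS5 KO. Ager alone was at 12.9, 9.63 and 13.0 CPM in wt replicates 1, 2 and 3. It was at 37.3, 60.3 and 29.2 CPM in the libraries labelled TKS5 KO. The sum there thus rests largely on Ager and does not check the amount of epithelial cells. The part of epithelial cells in the values of Ddr1 and Fgfr2 was not tested.

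**Figure D4:**
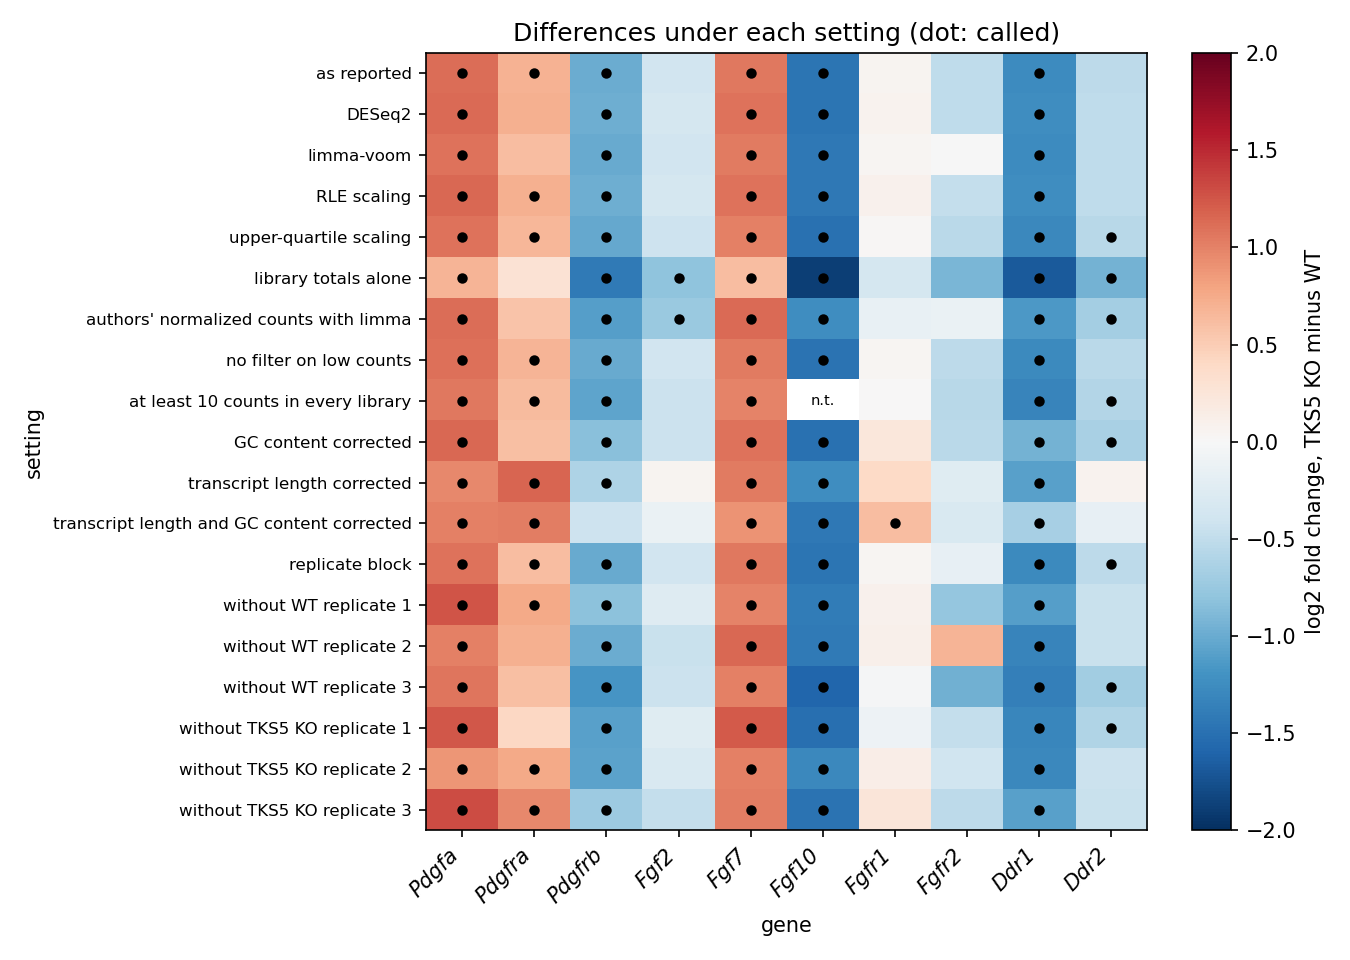
Log2 fold change of each member (columns; colour from -2, blue, to 2, red) as reported and under each alternative setting (rows), with a dot where the gene was called and n.t. where it was not tested. Pdgfa, Fgf7 and Ddr1 carry a dot in every row and Fgf10 in every row that tested it, while the dots of Pdgfra and Ddr2 come and go and Fgfr2 turns red without wt replicate 2.

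The other genes of the PDGF family did not follow Pdgfa. Of 4 genes, 3 were tested and all 3 were called lower (22.1% over all genes). Their median log2 fold change was -1.07 beside -0.05 over all tested genes. Pdgfrl, a receptor-like protein without a kinase domain, was counted 82, 76 and 72 times in wt LFs, against 29, 38 and 36 times in the libraries labelled TKS5 KO (log2 fold change -1.07, adjusted p = 0.00388). Pdgfd, a ligand of the β receptor, was at -1.51 (adjusted p = 0.00696), but lost its call without wt replicate 2, at -1.05 (adjusted p = 0.101). Pdgfc, a ligand of the α receptor, was at -0.83 (adjusted p = 0.0430) and was called in 1 of the 6 fits that left out a library. Its counts of 22, 32 and 73 in wt LFs peaked in wt replicate 3, the library with the high macrophage markers, and without that library the log2 fold change was -0.50 (adjusted p = 0.324). Pdgfb, a product of macrophages and endothelial cells among others, was not tested, at 0, 3 and 58 reads in wt replicates 1, 2 and 3, against 0, 0 and 1 in the libraries labelled TKS5 KO. The Pdgfb reads thus came almost wholly from wt replicate 3 too, and the part of macrophages in these values was not tested.

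Few other FGF genes were measurable. Of 19 other ligands 3 were tested and 6 had no count in any library. Fgf9, which signals to lung mesenchyme, was counted 29, 30 and 41 times in wt LFs, against 20, 10 and 7 times in the libraries labelled TKS5 KO (log2 fold change -1.28, adjusted p = 0.00968, but 0.0664 without TKS5 KO replicate 3), while Fgf18 (-0.86, adjusted p = 0.162) and Fgf22 (0.16, adjusted p = 0.687) were not called. Of 11 other receptors and co-receptors 3 were tested and 2 were called lower (22.1% over all genes). Flrt2, a membrane protein that binds FGF receptors and guidance receptors, was counted 287, 337 and 615 times in wt LFs, against 92, 79 and 120 times in the libraries labelled TKS5 KO (log2 fold change -1.91, adjusted p = 4.32e-07). Fgfrl1, an FGF receptor that lacks the kinase domain, was at -1.38 (adjusted p = 0.00305). Fgfr4 and the klotho co-receptors Kl and Klb were at 0 in all libraries, and Fgfr3 had at most 4 counts in any.

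Among 8 other collagen receptors, a pair of collagen-binding integrin chains, Itga11 and Itga1, fell. Itga11, the α11 chain of fibroblasts, was counted 65, 119 and 98 times in wt LFs, against 12, 5 and 15 times in the libraries labelled TKS5 KO (log2 fold change -3.01, standard error 0.34, adjusted p = 4.57e-07). Itga1, the α1 chain, was counted 67, 110 and 66 times in wt LFs, against 20, 10 and 14 times in the libraries labelled TKS5 KO (log2 fold change -2.37, standard error 0.35, adjusted p = 1.11e-05). Both were called with any library left out. Itgb1, the β1 chain with which both pair, was at 0.09 (adjusted p = 0.753), and Mrc2, an endocytic collagen receptor, at -0.31 (adjusted p = 0.439). Thus 2 of the 4 tested genes were called lower and 0 higher, beside 22.1% and 22.8% over all genes. The α2 and α10 chains, Itga2 and Itga10, were not tested, with at most 15 and 4 counts in any library.

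**Figure D5:**
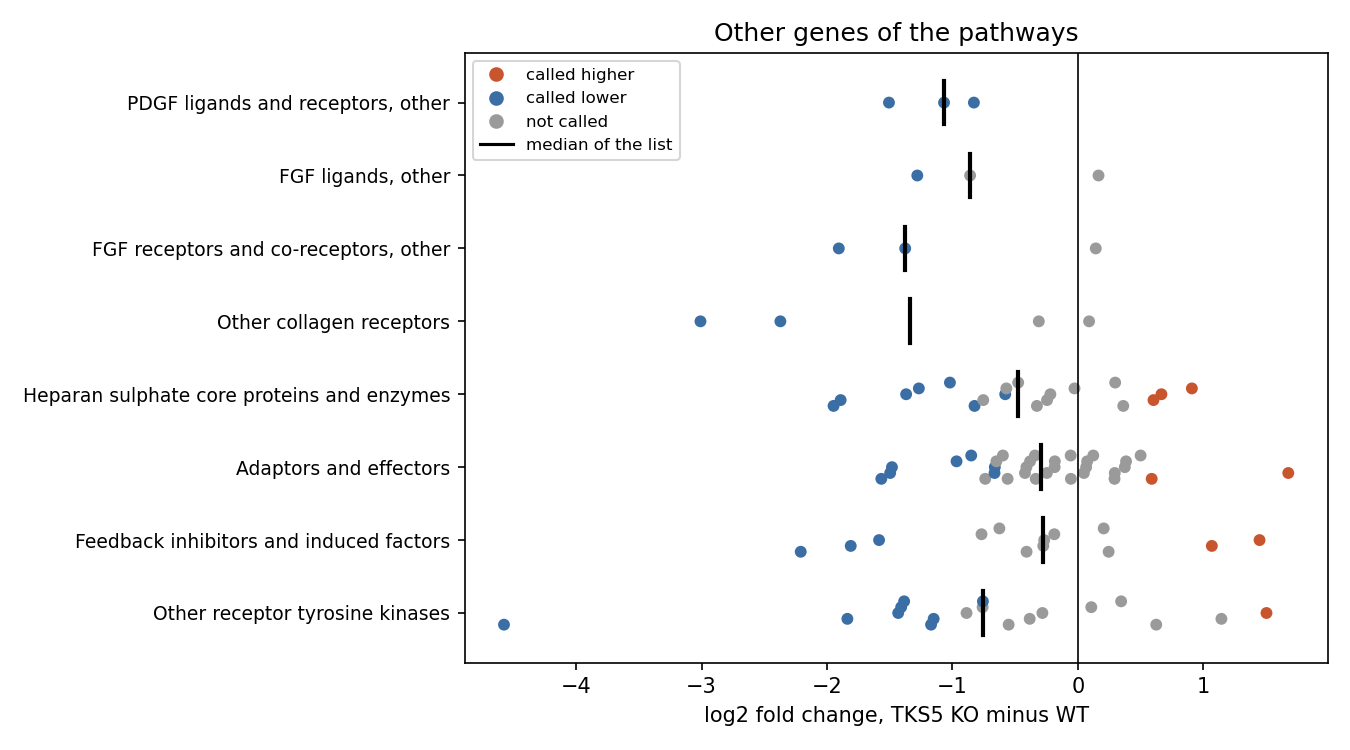
Log2 fold change (horizontal axis, libraries labelled TKS5 KO minus wt) of each tested gene of the pathway lists, in orange where called higher, blue where called lower and grey where not called, with a black line at the median of the list. All 8 medians lie below 0, from -1.38 to -0.28, beside -0.05 over all tested genes. Kdr, the point furthest to the left, had at most 2 counts in each library labelled TKS5 KO. The values are not corrected for transcript length, with which the log2 fold change correlated at -0.40 (Spearman) across 10339 genes. The part of length in these medians was not tested.

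Of 22 genes for heparan sulphate core proteins and enzymes 19 were tested, 7 were called lower and 3 higher. The shares over all genes were 22.1% and 22.8%. The median of the list was -0.48. The genes with the smallest adjusted p were all lower. Sulf1, a sulphatase that trims heparan sulphate outside the cell, was counted 268, 299 and 392 times in wt LFs, against 88, 68 and 79 times in the libraries labelled TKS5 KO (log2 fold change -1.89, adjusted p = 3.94e-07). Hspg2, which encodes the basement membrane proteoglycan perlecan, was at -1.95 (adjusted p = 1.48e-06), and the N-sulphating enzymes Ndst1 and Ndst2 at -1.37 (adjusted p = 1.79e-05) and -1.27 (adjusted p = 3.34e-04). The calls in the other direction were those of Gpc1 (log2 fold change 0.91, adjusted p = 9.70e-04), Sdc4 (0.67, adjusted p = 0.0204) and Hs6st2 (0.60, adjusted p = 0.0413), none of which was called on library totals alone. With a library left out, Sdc4 was called in 4 of 6 fits and Hs6st2 in 2.

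Of 35 adaptors and effectors downstream of the receptors 32 were tested, 7 were called lower, 2 higher and 23 not. Over all genes, 44.9% were called, 22.1% lower and 22.8% higher. Map2k1, the kinase MEK1, was counted 320, 305 and 430 times in wt LFs, against 844, 1317 and 887 times in the libraries labelled TKS5 KO (log2 fold change 1.68, adjusted p = 5.18e-06). Pik3r1, a regulatory subunit of phosphoinositide 3-kinase, was at -1.48 (adjusted p = 0.00170), Rasa1, a Ras GTPase-activating protein, at -1.57 (adjusted p = 0.00226) and Sos2, a Ras exchange factor, at -1.50 (adjusted p = 0.00569).

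Genes that receptor signalling is known to induce, and inhibitors that feed back on it, moved in both directions. Of 17 genes 16 were matched and 13 tested, 3 were called lower and 2 higher (22.1% and 22.8% over all genes). Ccnd1, cyclin D1, was counted 24, 31 and 59 times in wt LFs, against 73, 104 and 95 times in the libraries labelled TKS5 KO (log2 fold change 1.45, adjusted p = 1.04e-04). Spry2, an inhibitor of receptor tyrosine kinase signalling, rose from 73, 87 and 105 counts to 114, 175 and 218 (log2 fold change 1.07, adjusted p = 8.84e-04). Etv4, a transcription factor induced by FGF, was counted 18, 26 and 73 times in wt LFs, against 9, 7 and 5 times in the libraries labelled TKS5 KO (log2 fold change -2.21, adjusted p = 2.46e-04), and Il17rd, the FGF antagonist Sef, was at -1.81 (adjusted p = 0.00162). Other usual readouts of the pathway, Dusp6 (-0.28, adjusted p = 0.420), Etv5 (-0.63, adjusted p = 0.0740), Spry1 (0.24, adjusted p = 0.624) and Egr1 (-0.27, adjusted p = 0.353), were not called.

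Among 50 other receptor tyrosine kinases 18 were tested, 8 were called lower and 1 higher (22.1% and 22.8% over all genes). The median of the list was -0.76. Igf1r, the receptor of insulin-like growth factors, was counted 136, 194 and 225 times in wt LFs, against 72, 50 and 64 times in the libraries labelled TKS5 KO (log2 fold change -1.43, adjusted p = 2.11e-05). Ephb3, an ephrin receptor, was at -1.41 (adjusted p = 3.65e-05). Ryk, a Wnt receptor, was the gene called higher, counted 420, 443 and 443 times in wt LFs, against 784, 1285 and 1400 times in the libraries labelled TKS5 KO (log2 fold change 1.50, adjusted p = 3.21e-05). Kdr, the VEGF receptor of endothelial cells, was counted 17, 17 and 28 times in wt LFs, against 0, 0 and 2 times in the libraries labelled TKS5 KO. Set against the floor of 3 counts in each of these, Kdr was 6.16-fold lower, which is not a strict limit. Endothelial markers summed to between 121 and 155 CPM in wt LFs and between 45.6 and 61.4 CPM in the libraries labelled TKS5 KO, with 4 of 5 tested markers called lower, and Pecam1, the endothelial adhesion molecule, was counted 7, 10 and 21 times in wt LFs but 0 in each library labelled TKS5 KO. Their part in the Kdr value was not tested. Fibroblast markers summed to between 12798 and 14487 CPM in wt LFs and between 16844 and 19261 CPM in the libraries labelled TKS5 KO. A large part of the sum was S100a4, at 8216, 8345 and 10764 CPM in wt replicates 1, 2 and 3 and 8304, 13110 and 12847 CPM in the libraries labelled TKS5 KO. The sum thus rests largely on a single gene and does not check the cell type. Of 10 tested markers 3 were called higher and 0 lower (22.8% and 22.1% over all genes).

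Across the 6 libraries, the genes of at least 20 CPM whose log2 CPM ran most like that of Pdgfrb were Fastk, Wdr26 and App, with a Pearson r from 0.992 to 0.994 among 6017 genes. Those for Fgf10 were Fuz, Ggnbp2 and Lmna (r of about 0.997 each), and those for Ddr1 were Kif1a, Ahnak and Grin3b (r from 0.995 to 0.997). For Fgfr2, whose pattern rests on wt replicate 2, they were Gxylt2, Pgs1 and Rilpl1 (r from 0.919 to 0.933). The libraries fall into 2 genotypes, so that any gene that differs between them by a similar size gives a high r, and these values are descriptions.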

How the data were processed

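RNA of 3 wt and 3 TKS5 KO libraries was analysed. Per the labels and the study's methods, Trim Galore was used by the authors for trimming, HISAT2 and Bowtie2 in turn for alignment to GRCm38, and metaseqR2 for counting on transcript ends. The deposited raw counts are sums per gene. The deposited normalized counts, used as a score, were made by the authors with EDASeq and rounded; all 6 columns hold the same sorted values. The strand setting of the counting is not given in the sources used here. Of 55364 genes listed, 21720 had a count and 55104 were matched to the Ensembl annotation of GRCm38, the build of the files, which gave symbols, coordinates, overlaps and transcript lengths.

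Raw counts were filtered with filterByExpr, scaled by TMM and tested with the quasi-likelihood F test of edgeR 4.0.16 in R 4.3.3, with Benjamini-Hochberg adjustment over 10346 genes. Calls required an adjusted p below 0.05 together with a fold change of 1.2 or more. CPM were computed from TMM-scaled totals, and standard errors come from the fit. Ratios between members are log2 of counts plus 0.5, compared by exact two-sided permutation tests. Depth limits precision as given by the total counts, and the limit of 3 counts covers counting error only. The fits were run before use on simulated counts with few changed genes and a single dispersion. These settings are simpler than the data, so the run does not test the fits under changes as wide as those here. Replicates of a genotype differed by more than sampling noise.

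Alternatives were DESeq2 1.42.0, limma-voom and limma 3.58.1 on log2 of the authors' normalized counts plus 1, RLE and upper-quartile scaling, library totals alone, no filter, at least 10 counts in every library, no fold change threshold, loess corrections (span 0.5, prior count 2) for transcript length and GC content, the replicate block, and each library left out. Ratios were also taken with 2 in place of 0.5. Members and lists were chosen with earlier results of these data known. Named genes are the members, Sh3pxd2a, the 4 called genes of each pathway list with the smallest adjusted p, the 2 most abundant markers of each list where a result turns on them, genes overlapping members, and the 3 genes most like each leading member. Other list members were named after their values were seen. Some list members are not reported here. The study's combination of tests was not rebuilt. Tables were made with pandas 2.3.3 and plots with matplotlib 3.10.9.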

Additional observations from a re-analysis of the deposited data

How the results depend on the processing

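Pdgfa, Fgf7 and Ddr1 kept their direction and call in all 18 alternative fits, and Fgf10 in the 17 that tested it. The number of members called ranged from 5 to 7. The number of genes called ranged from 3705, under a minimum of 10 counts per library, to 5306 on library totals alone, where 3944 were lower and 1362 higher, in place of 2286 and 2356. Leaving out a library gave between 3853 and 4595 genes called and 5 or 6 members. The log2 fold change of Sh3pxd2a was -0.13 on library totals alone (adjusted p = 0.608), 1.00 after correction for transcript length (adjusted p = 5.19e-04) and 1.15 after correction for length and GC content (adjusted p = 1.12e-04), and between 0.22 and 0.41 with a library left out. Signs also turned for Ddr2 (0.070) and Fgf2 (0.060) after correction for length, for Fgfr1 on library totals (-0.35), on the authors' normalized counts (-0.15), without wt replicate 3 (-0.02) and without TKS5 KO replicate 1 (-0.10; up to 0.24 with another library left out), and for Fgfr2 without wt replicate 2 (0.68; down to -0.96 with another left out). The cause of these turns was not tested. Across 10339 genes the Spearman correlation of the log2 fold change with transcript length was -0.40, which is a description. The longest transcripts of the members ran from 2060 bases (Pdgfa) to 8590 bases (Ddr2), beside a median of 3204 bases over the tested genes. Only Pdgfa and Fgf7 (2672 bases), both called higher, lay below that median. Every member called lower lay above it, as did Pdgfra (6834 bases), which was called higher. The part of length in these calls was not tested. The ratios of Ddr1 to Ddr2, Pdgfra to Pdgfrb and Fgf7 to Fgf10 kept their direction with 2 in place of 0.5 added to the counts and with any library left out, while the difference in that of Fgfr1 to Fgfr2, 0.11 over all libraries, was -0.60 without wt replicate 2, -0.047 without TKS5 KO replicate 1 and up to 0.59 without another.

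No label states that the replicate numbers pair the libraries. The deviations of same-numbered libraries correlated at -0.001, -0.064 and 0.082. These values show no large effect shared by replicate number but cannot exclude a pairing. With the replicate block 4668 genes were called, 2308 lower and 2360 higher, and 7 members, because Ddr2 passed at -0.52 (adjusted p = 0.0481); the log2 fold change of Sh3pxd2a was 0.30.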
